A study of Mus musculus with 6 samples.

Results

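Amino acid transporters are described here in the kidneys of KC-Tie2 and Control mice. The 44 genes were taken by name and type alone: protein-coding rows of the deposited expression table whose symbol starts with Slc1a, Slc3a, Slc6a, Slc7a, Slc36a, Slc38a or Slc43a, out of 17550 rows in all, 13637 of them protein-coding. By family, the Slc1 family had 5 members, Slc3 had 2, Slc6 had 12, Slc7 had 11, Slc36 had 3, Slc38 had 8 and Slc43 had 3. Slc7a6os, a neighbour named after Slc7a6 and read from the other strand, matches the rule by its symbol but is not a transporter. Poly(A)-selected RNA libraries were made from saline-perfused kidneys, 3 labelled Control and 3 labelled KC-Tie2. KC-Tie2 is a psoriasis model in which keratinocytes of the skin carry a Tie2 transgene, so the transgene is aimed at skin and not at the kidney. The labels used here give no strain, age, sex, promoter or further description of the Control genotype, which the authors' deposited comparison table heads WT, and do not say that the 3 samples of a genotype were separate animals, so the tests measure the spread between these samples.

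The kidney filters amino acids freely at the glomerulus and takes nearly all of them back in the proximal tubule. Carriers of the brush border, driven mainly by sodium, bring them into the cell, and exchangers and facilitated carriers of the basolateral membrane pass them on to the blood. Several Slc7 proteins work only as a heterodimer with a heavy chain, Slc3a1 at the brush border or Slc3a2 at the basolateral side. The Slc6 family also holds carriers of molecules related to amino acids, such as creatine, taurine, betaine and GABA.

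Values below are deposited normalized counts, in which each library had been scaled by the authors. Over the table they summed to between 23647811 and 25495455 per library. Genes averaging under 10 across the 6 libraries were not tested. None of the 44 was lost that way, and their means ran from 34.55 for Slc43a1 to 13972 for Slc3a1. A mean of at least 1000 was reached by 20 genes, 18 lay between 100 and 1000, and 6 lay below 100. Fold changes are KC-Tie2 against Control on the log2(value + 1) scale ± SE, and limma's p-values were adjusted by the Benjamini-Hochberg method across all 17539 tested genes. Means of a genotype are given ± SD with n = 3. A gene is called, and said to have risen or fallen, at an adjusted p under 0.05. Gene positions were copied from the deposited table, whose build, per the submitters' processing notes, is mm39.

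Levels between genes were compared per kilobase of the longest coding transcript of each gene in the GENCODE M21 annotation. On this per-kilobase scale Slc3a1, the heavy chain of the brush border transporter for cystine and dibasic amino acids, stood highest, at 6256 for Control and 6049 for KC-Tie2. Slc7a13 followed with 5116 in Control, then Slc6a18 with 2975, Slc6a6 with 2173, Slc6a19 with 1828 and Slc1a1 with 1710. The upper end of the order thus held carriers of the proximal brush border together with the taurine carrier Slc6a6. At the lower end in Control stood Slc38a4 with 10.3 and Slc43a1 and Slc6a12 with 11.2 each per kilobase. Neighbours in the order were often close: Slc6a19 ran from 1545 to 2141 per kilobase over the 6 libraries and Slc1a1 from 1472 to 1788, so their ranges overlapped. The order depends on the isoform, since with the median coding transcript length 8 of the 10 highest genes were the same and Slc6a6 moved to the top.

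**Figure D1:**
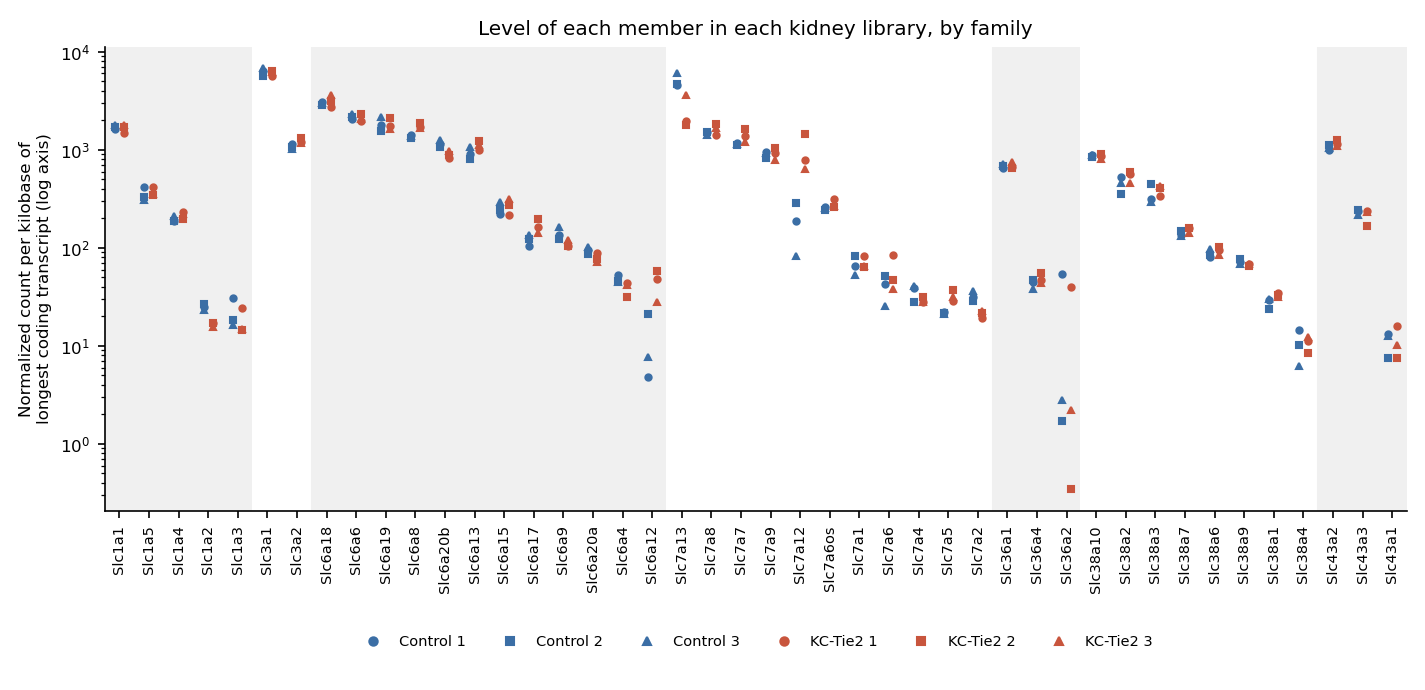
Each of the 44 genes on the x axis, grouped by family, with its normalized count per kilobase of the longest coding transcript in each library on a log y axis; blue is Control, red is KC-Tie2, and circle, square and triangle are replicates 1, 2 and 3. Slc3a1 is highest in both genotypes, and Slc7a12, Slc6a12 and Slc36a2 spread most widely over the libraries.

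The transporters' total overlapped between the genotypes. Their summed normalized count was 119171, 115416 and 126612 in Control replicates 1 to 3 and 111316, 125267 and 121328 in KC-Tie2 replicates 1 to 3, or 0.47% to 0.509% of a library. The lowest sum was a KC-Tie2 and the highest a Control library, and the ranges overlapped. Of the families, Slc7 was lower in every KC-Tie2 library, at 17899, 21016 and 21290 against 22326, 22374 and 24586 in Control. Slc7a13, which was not called, carried this. The other 10 Slc7 genes summed to 12480, 12264 and 11682 in Control and to 13684, 17145 and 13566 with KC-Tie2, higher in every KC-Tie2 library. This sum was made after the values were seen. It includes Slc7a6os and also Slc7a12, which had means of 326 and 1677 and was not called. By gene, 8 of the 11 had a log2 fold change above 0, with a median of 0.14. The sums of the other 6 families overlapped between the genotypes, for Slc1, Slc38 and Slc43 only through KC-Tie2 replicate 3.

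Of the 44 genes, 1 rose and 2 fell. Over all genes tested 1.69% were called (0.855% higher and 0.838% lower), so 3 of 44 lies above that background, though a count this small moves by 1 gene at a time. Among the 20 transporters with a mean of at least 1000 only Slc6a8 was called, where 3.13% of all genes at that level were. At an unadjusted p under 0.05 there were 14 transporters, against 15.3% of all genes, and in 15 the 3 KC-Tie2 libraries lay wholly above or below the 3 Control libraries, against 20% of all genes. Log2 fold changes were above 0 in 27 and below 0 in 17, with a median of 0.08 against 0.0012 over all genes tested. By the authors' deposited table, a total of 7 of the 44 had a step-up FDR under 0.05, against 3.91% of all genes, namely the called Slc6a8, Slc1a2 and Slc7a2 and also Slc6a20b, Slc6a17, Slc6a12 and Slc7a12.

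**Figure D2:**
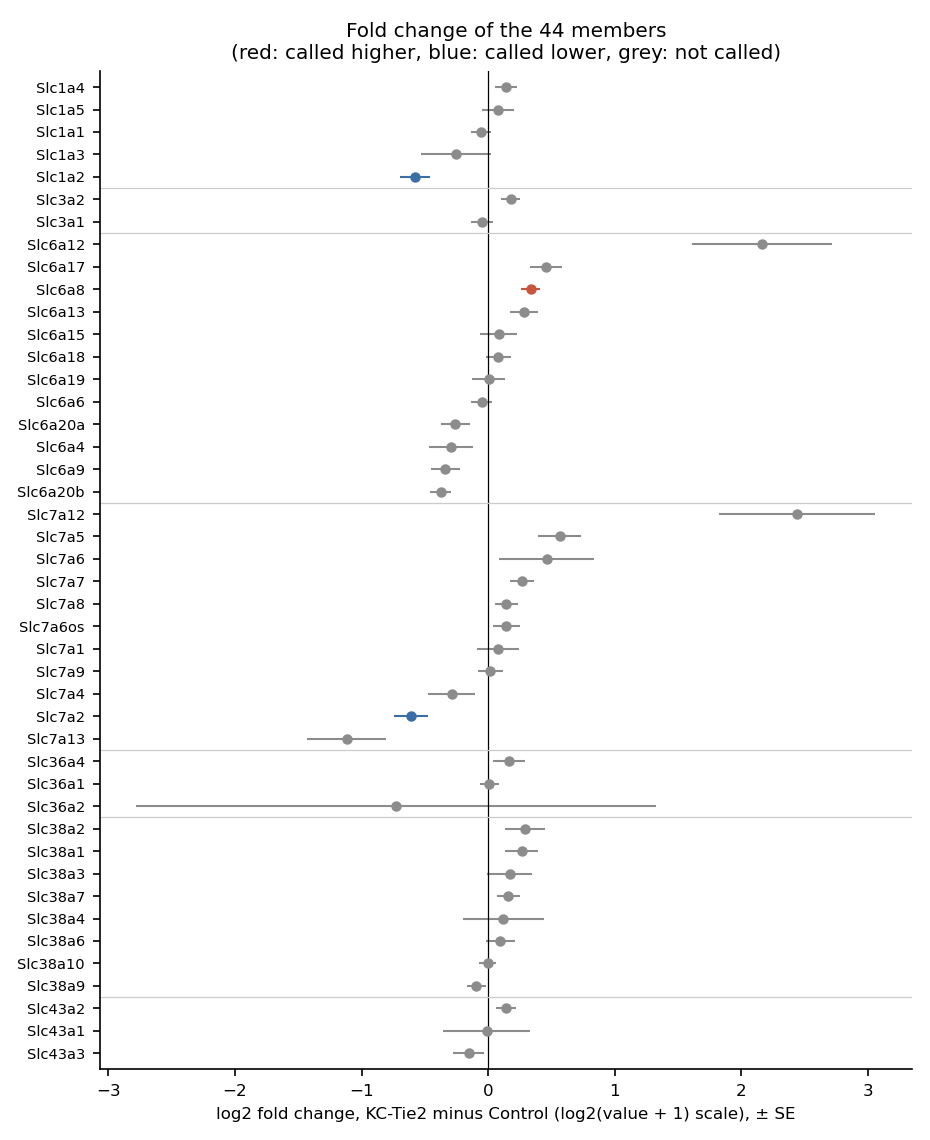
Log2 fold change (KC-Tie2 minus Control, log2(value + 1) scale) of each of the 44 genes with its SE as a horizontal bar, grouped by family. Slc6a8 is called higher (0.34) and Slc1a2 (-0.58) and Slc7a2 (-0.61) are called lower, while the larger differences of Slc7a12 (2.44), Slc6a12 (2.16) and Slc7a13 (-1.12) carry wider bars and are not called.

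Slc6a8, the sodium-driven carrier that brings creatine into cells (ENSMUSG00000019558, chromosome X, 72716756 to 72726108), was the gene that rose. Its normalized counts were 5599, 5239 and 5515 in Control and 6720, 7365 and 6572 in KC-Tie2 kidneys. All KC-Tie2 libraries lay above all Control libraries, and the gap between the groups was wider than the spread within either. The mean went from 5451 ± 189 to 6886 ± 421 (SD, n = 3 each), a 1.26-fold rise with a log2 fold change of 0.34 ± 0.07 (limma adjusted p = 0.0425). Gatm, which makes the precursor of creatine in proximal tubule cells, averaged 11918 in Control and rather more in KC-Tie2 kidneys, at 15940, without a call (limma adjusted p = 0.17).

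Slc1a2, a high-affinity glutamate carrier best known from astrocytes (ENSMUSG00000005089, chromosome 2, 102489004 to 102621129), fell. It stood at 286, 309 and 272 in Control and at 198, 200 and 181.5 in KC-Tie2 kidneys. The 3 KC-Tie2 values lay close together and below every Control value. The mean went from 289 ± 18.7 to 193 ± 10.1 (SD, n = 3 each), 1.49-fold lower (log2 fold change -0.58 ± 0.12, limma adjusted p = 0.0315). Per kilobase Slc1a2 is a minor transcript here, at 24.9 in Control beside 1710 for Slc1a1.

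Slc7a2, a cationic amino acid carrier that supplies arginine to cells (ENSMUSG00000031596, chromosome 8, 41315433 to 41375345), fell as well. Its values were 249, 228 and 290 in Control and 153, 169 and 178 in KC-Tie2 kidneys. Again the groups did not overlap, and Control replicate 2 lay nearest to the KC-Tie2 libraries. The mean went from 255.5 ± 31.3 to 167 ± 12.5 (SD, n = 3 each), 1.52-fold lower (log2 fold change -0.61 ± 0.13, limma adjusted p = 0.0452). The other carrier of this kind, Slc7a1, averaged 482 ± 109 in Control and 505 ± 74.4 with KC-Tie2 (log2 fold change 0.08 ± 0.17).

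Slc6a20b, a mouse copy of the gene for the imino acid (proline) carrier of the brush border (ENSMUSG00000025243, chromosome 9, 123419865 to 123461630), missed the threshold narrowly. The counts do not show whether this copy or its neighbour Slc6a20a carries proline. It had 7250, 6772 and 7934 in Control and 5174, 5621 and 6127 in KC-Tie2 kidneys, with no overlap. The means were 7319 ± 584 and 5641 ± 477 (SD, n = 3 each), with a log2 fold change of -0.38 ± 0.09 (limma adjusted p = 0.0505). Its end overlaps Sacm1l on the other strand by 1801 bases, and the sources used here do not say whether counting used strand. Sacm1l had 1442 to 1566 in Control and 1479 to 1746 in KC-Tie2 kidneys. The neighbouring copy Slc6a20a stood at 371, 337 and 397 in Control and 343, 302 and 280 in KC-Tie2 kidneys, which overlapped (log2 fold change -0.26 ± 0.11, limma adjusted p = 0.3). Reads that fit both copies could have been split between them in counting, so the share of each is uncertain. Slc1a1, Slc3a1, Slc6a6, Slc6a9, Slc6a19, Slc6a20a, Slc7a7 and Slc43a2 also overlap another gene of the table, and shared reads cannot be told apart there either.

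Promoter sequence is shown for 3 of the genes whose groups did not overlap and that the RefSeq promoter table lists. They are Slc1a2, Slc6a20b and Slc6a12, the betaine carrier, whose KC-Tie2 values all lay above Control without a call. Other such genes, among them Slc6a17, Slc7a7 and Slc38a9, are not shown. The table (build GRCm38.p6, which differs from the build of the counts) matched 30 of the 44 genes. Shown are the 250 bases before a listed start site, 5′ to 3′ on the gene's strand, and for Slc6a12 before the farthest upstream of 5 listed starts. For 29 of the 49 promoters listed for the transporters, the first 25 transcribed bases lay within the first 200 bases of a coding transcript. The shown starts of Slc1a2 and Slc6a20b were among these, and that of Slc6a12 was not. Slc1a2 has 7 coding transcripts, and the shown start may be that of a shorter one inside the gene. Which start the kidney uses was not tested. Capitals mark matches to the core of the NFAT5 site, TGGAAA, on either strand. NFAT5 is the factor that turns on osmolyte carriers in salty surroundings. The windows are chr2:102706188-102706437 (plus strand), chr9:123632539-123632788 (minus strand) and chr6:121342324-121342573 (plus strand).
Slc1a2: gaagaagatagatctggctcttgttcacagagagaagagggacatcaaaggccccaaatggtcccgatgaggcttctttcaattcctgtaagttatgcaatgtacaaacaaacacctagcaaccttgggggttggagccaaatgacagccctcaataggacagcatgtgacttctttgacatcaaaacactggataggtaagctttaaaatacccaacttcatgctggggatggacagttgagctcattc
Slc6a20b: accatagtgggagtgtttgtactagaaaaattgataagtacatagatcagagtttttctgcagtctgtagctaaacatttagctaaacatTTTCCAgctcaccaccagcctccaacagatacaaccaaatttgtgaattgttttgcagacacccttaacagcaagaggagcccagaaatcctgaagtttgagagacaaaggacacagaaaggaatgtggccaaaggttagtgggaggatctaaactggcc
Slc6a12: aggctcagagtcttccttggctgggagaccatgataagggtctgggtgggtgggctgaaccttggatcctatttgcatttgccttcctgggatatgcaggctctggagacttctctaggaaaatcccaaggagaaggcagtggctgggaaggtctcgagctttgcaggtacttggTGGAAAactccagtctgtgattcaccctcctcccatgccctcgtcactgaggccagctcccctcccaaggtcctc
The Slc6a12 and Slc6a20b windows each held 1 match to the core and that of Slc1a2 none, and 18.6% of the 32851 promoters of the table hold it. Of the 5 listed Slc6a12 starts, only the one shown had a match in its window. Searches on both strands for AGAACA (androgen and glucocorticoid receptors), TTCNNNGAA (STAT), TGATGNAA (amino acid response element) and GTTAAT (HNF1) found none in these 3 windows, against 16.1%, 7.02%, 3.45% and 6.43% of all promoters. Some windows not shown held them, such as those of Slc7a7 (AGAACA, TGATGNAA and GTTAAT) and Slc38a9 (TTCNNNGAA). Over the 49 promoters listed for the transporters the shares were 22.4% for TGGAAA, 14.3% for AGAACA, 6.12% for TTCNNNGAA, 4.08% for TGATGNAA and 8.16% for GTTAAT.

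These calls rest on few libraries. Without Control replicate 1, Control replicate 3, KC-Tie2 replicate 1 or KC-Tie2 replicate 2, no transporter was called, while 48 to 69 genes of the whole table were called in those fits. Without Control replicate 2, Slc7a2, Slc6a20b and Slc6a12 were called, and without KC-Tie2 replicate 3 there were 7, namely Slc6a8, Slc6a17 and Slc7a7 higher and Slc1a2, Slc6a20b, Slc7a13 and Slc7a2 lower. The direction of Slc6a8, Slc1a2 and Slc7a2 was the same in each of these 6 fits, with log2 fold changes of 0.29 to 0.37, -0.62 to -0.53 and -0.69 to -0.51. With each library scaled to the same total, Slc6a8 was called again, the calls of Slc1a2 (limma adjusted p = 0.0552) and Slc7a2 (0.0504) were lost, and Slc6a20b was called (0.032).

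**Figure D3:**
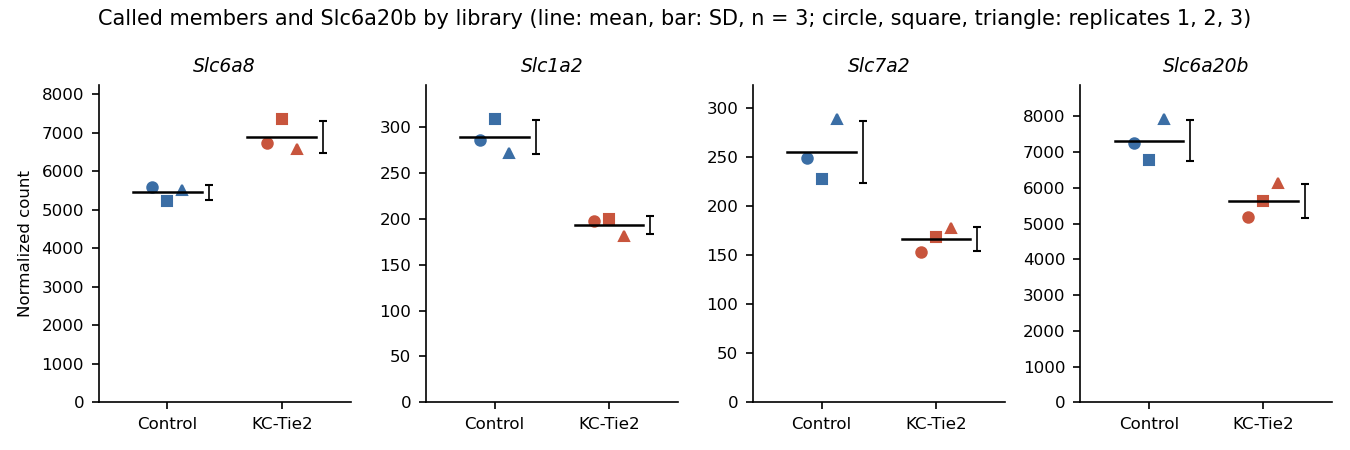
Normalized counts of Slc6a8, Slc1a2, Slc7a2 and Slc6a20b in each library (points), with the mean as a line and the SD as a bar (n = 3 per genotype), y axes from 0. In each of the 4 panels the KC-Tie2 points lie wholly on one side of the Control points, and Slc6a20b, at an adjusted p of 0.0505, is the panel that is not called.

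Slc7a12 and Slc7a13 had large differences of opposite sign, and neither was called. Slc7a12, a carrier of small neutral amino acids (ENSMUSG00000039710, chromosome 3, 14545757 to 14570890), had 330, 502 and 145 in Control and 1380, 2547 and 1105 in KC-Tie2 kidneys. Every KC-Tie2 library lay above every Control library, and the values also spread widely within each genotype. The means were 326 ± 179 and 1677 ± 765 (SD, n = 3 each), 5.43-fold higher in KC-Tie2 (log2 fold change 2.44 ± 0.62, limma adjusted p = 0.191). Slc7a13, which carries acidic amino acids and cystine with Slc3a1 as its heavy chain in the last part of the proximal tubule (ENSMUSG00000041052, chromosome 4, 19818725 to 19842218), had 9847, 10110 and 12905 in Control and 4215, 3871 and 7724 in KC-Tie2 kidneys. The groups did not overlap, and KC-Tie2 replicate 3 lay nearest to Control. The means were 10954 ± 1695 and 5270 ± 2132 (SD, n = 3 each), 2.17-fold lower (log2 fold change -1.12 ± 0.31, limma adjusted p = 0.204). Within a library, the normalized count of Slc7a13 was 29.9, 20.1 and 89.1 times that of Slc7a12 in Control replicates 1 to 3 and 3.05, 1.52 and 6.99 times in KC-Tie2 replicates 1 to 3. When the variance was modelled without the robust step the adjusted p was 0.0289 for Slc7a12 and 0.0464 for Slc7a13 (limma, robust variance moderation left out). Without KC-Tie2 replicate 3 it was 0.000595 for Slc7a13 and 0.212 for Slc7a12 (limma). Most other settings gave no call: of 17 alternative fits, 2 called Slc7a12 and 3 called Slc7a13. Without Control replicate 1 the limma adjusted p was 0.422 and 0.396.

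Slc7a12 and Slc7a13 are known to differ between male and female mouse kidneys, so genes that depend on androgen and on the sex chromosomes are given beside them. Kap, the kidney androgen-regulated protein, had 185414, 139791 and 210491 in Control and 74582, 79946 and 119085 in KC-Tie2 kidneys. Cyp4a12a, a cytochrome P450 of male kidneys, had 2496, 1273 and 2360 in Control and 141, 92.8 and 276 in KC-Tie2 kidneys, and Slco1a1, an organic anion carrier of male kidneys, 3042, 2236 and 6723 against 219, 178 and 949. All 3 were lower in every KC-Tie2 library than in any Control library, though none was called (limma adjusted p = 0.107, 0.0719 and 0.195). Control replicate 3 was highest and KC-Tie2 replicate 3 was highest of its genotype at Slc7a13, Kap and Slco1a1. The 4 Y-linked genes listed were present in every library, with means in Control and KC-Tie2 of 925 and 798.5 for Ddx3y, 963 and 903 for Kdm5d, 1001 and 875 for Uty and 649 and 501 for Eif2s3y. Of these, Kdm5d, Uty and Eif2s3y were lower in every KC-Tie2 library than in any Control library, and none was called. Xist had 98.4, 89.3 and 415 in Control and 38.2, 25.6 and 241 in KC-Tie2 kidneys, highest in replicate 3 of each genotype. The part of androgen-dependent expression in the Slc7a12 and Slc7a13 values was not tested.

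**Figure D4:**
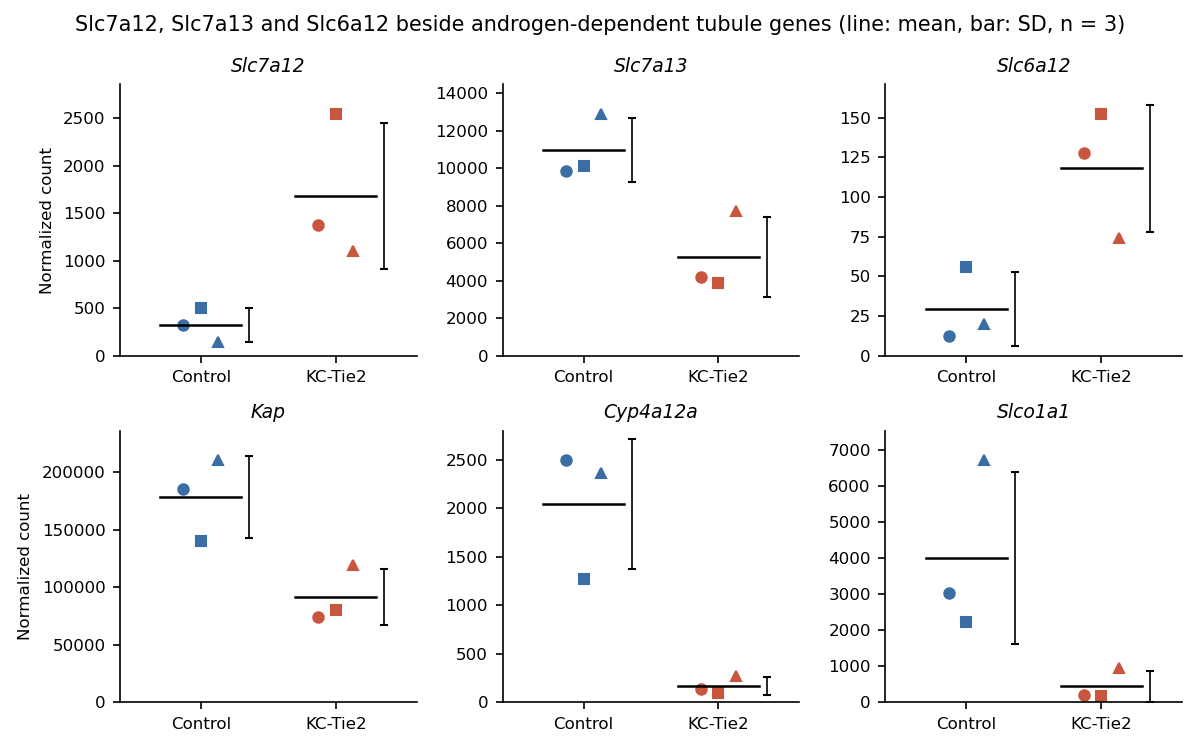
Normalized counts of Slc7a12, Slc7a13 and Slc6a12 (upper row) and of the androgen-dependent genes Kap, Cyp4a12a and Slco1a1 (lower row) in each library, with the mean as a line and the SD as a bar (n = 3 per genotype), y axes from 0. Slc7a12 and Slc6a12 are higher, and the other 4 genes lower, in each KC-Tie2 library than in any Control library.

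Summed counts of markers of some tubule segments differed between the genotypes, though few single markers were called. The 8 proximal tubule markers, among them the endocytic receptor Lrp2 and the phosphate carrier Slc34a1, were all below 0 (median log2 fold change -0.18, none called), and their summed count was 489371 to 529772 in Control and 403368 to 478425 in KC-Tie2 kidneys. Markers of the straight last part of the proximal tubule summed to 19166 to 30410 and to 10407 to 17714, with 4 of 5 below 0. Acsm3 made up most of that difference, and without it the sums were 9456 to 12209 and 7475 to 11023, which overlapped. The 3 markers of its first part summed to 25060 to 27482 and to 27553 to 34383, with 2 above 0 and 1 below, none called. Gatm, with the largest difference, had means of 11918 and 15940, Slc5a12 had 7599 and 9262, and Slc5a2 had 6893 and 6685. Those of principal cells of the collecting duct, led by the water channel Aqp2, were all 5 above 0, summing to 5901 to 8349 and to 9618 to 12795. Called markers were Trpm6 and Calb1 of the distal convoluted tubule and C1qa, C1qb and C1qc of macrophages, all higher. The sums of the 4 distal convoluted tubule markers overlapped, at 37079 to 43706 in Control and 42717 to 49507 in KC-Tie2 kidneys. Of them 3 lay above 0, and Slc12a3 did not, with means of 32729 and 31822. All 6 macrophage markers lay above 0, but Adgre1, Csf1r and Cd68 were not called. No marker of podocytes, endothelium, fibroblasts, the thick ascending limb or intercalated cells was called. Thick ascending limb markers summed to 96139 to 101681 in Control and 103387 to 133484 in KC-Tie2 kidneys, with 4 of 5 above 0. Those of intercalated cells summed to 4132 to 4742 and to 4748 to 5372, all 5 above 0. All 5 podocyte markers were above 0 too, but their sums overlapped, as did those of endothelium and fibroblasts. Fewer cells of a segment and less RNA per cell cannot be told apart in whole-kidney libraries, and the part of either in the transporter values was not tested.

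The main brush border carriers of neutral amino acids overlapped between the genotypes. Slc6a19, the broad neutral amino acid carrier, had 7074, 6082 and 8428 in Control and 6829, 8314 and 6454 in KC-Tie2 kidneys. The genotypes covered the same range, and the log2 fold change was 0.01 ± 0.13. Slc6a18, a related carrier of glycine and other small neutral amino acids, had 12345 ± 494.5 and 13132 ± 1839 (log2 fold change 0.08 ± 0.10). Both need collectrin (Cltrn) to reach the kidney brush border, and Cltrn had a log2 fold change of -0.05 ± 0.11. The part of Slc6a19 that overlaps the noncoding Slc6a19os on the other strand spans 5040 bases, but Slc6a19os had at most 36.3.

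For cystine and dibasic amino acids, neither subunit of the brush border heterodimer that is defective in cystinuria was called. Slc3a1 had 14363, 12783 and 15474 in Control and 12704, 14406 and 14103 in KC-Tie2 kidneys (log2 fold change -0.05 ± 0.09). Slc7a9, its light chain, had 1837, 1603 and 1813 and 1780, 2036 and 1529 (log2 fold change 0.02 ± 0.10). The genotypes overlapped at both genes. The ratio of the Slc7a13 count to that of Slc3a1, the heavy chain it shares with Slc7a9, was 0.686 to 0.834 in Control and 0.269 to 0.548 in KC-Tie2 kidneys, while that of Slc7a9 to Slc3a1 was 0.117 to 0.128 and 0.108 to 0.141. The first ratio was lower in each KC-Tie2 library than in any Control library, and the second overlapped.

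On the basolateral side the heavy chain Slc3a2 had 3233, 3017 and 2843 in Control and 3347, 3676 and 3275 in KC-Tie2 kidneys. Its KC-Tie2 libraries all lay above Control, by a small margin, and it was not called (log2 fold change 0.18 ± 0.07, limma adjusted p = 0.274). Among its light chains, Slc7a7, which exports dibasic amino acids and is mutated in lysinuric protein intolerance, had 2697, 2534 and 2621 and 3121, 3686 and 2719 (log2 fold change 0.27 ± 0.10, limma adjusted p = 0.21). KC-Tie2 replicate 3 was just above the highest Control library. Slc7a8, the main basolateral exchanger of neutral amino acids, had 6051 ± 212 and 6723 ± 887, overlapping (log2 fold change 0.14 ± 0.09). Slc7a5, the large neutral amino acid exchanger of growing cells, had 77.7, 76.8 and 74.4 in Control and 99.9, 132 and 111 in KC-Tie2 kidneys. Its Control values were very close together and every KC-Tie2 value lay above them, without a call (log2 fold change 0.56 ± 0.17, limma adjusted p = 0.136). Slc7a6, another light chain, overlapped widely, from 96.1 to 195 in Control and from 143 to 315 in KC-Tie2 kidneys, and its neighbour Slc7a6os had 315 ± 14.5 and 348 ± 35.1. Slc7a4, a relative of the cationic carriers, had 118 ± 23.4 and 95.65 ± 6.72. Slc7a11, the cystine and glutamate exchanger, was not analysed here.

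The basolateral facilitated carrier Slc43a2, which lets neutral amino acids out towards the blood, had 7177, 8016 and 7423 in Control and 8263, 8918 and 7758 in KC-Tie2 kidneys. The genotypes overlapped through Control replicate 2 and KC-Tie2 replicate 3 (log2 fold change 0.14 ± 0.08, limma adjusted p = 0.433). Its relatives Slc43a1 and Slc43a3 had means of 34.4 and 602 in Control and 34.65 and 546.5 in KC-Tie2 kidneys. Slc43a3 carries purine bases and not amino acids. None of the 3 Slc43 genes was called or had an unadjusted p under 0.05.

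In the Slc1 family, the acidic amino acid carrier of the brush border, Slc1a1, was the highest per kilobase. It had 6260, 6442 and 6795 in Control and 5594, 6481 and 6721 in KC-Tie2 kidneys (log2 fold change -0.06 ± 0.08). The genotypes overlapped, and whether its fold change differs from that of Slc1a2 was not tested. Slc1a3, another glutamate carrier, had 90.25 ± 32.2 and 74.9 ± 23.6. The neutral amino acid exchangers Slc1a4 (768 ± 47.7 and 849 ± 74.6) and Slc1a5 (977 ± 165 and 1026 ± 120) had log2 fold changes of 0.14 ± 0.09 and 0.08 ± 0.12, neither called.

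Among the Slc6 carriers of osmolytes and transmitters, Slc6a12 was the most variable over the libraries. Slc6a6, the taurine carrier, had 13441 ± 800 and 12997 ± 1083 (log2 fold change -0.05 ± 0.08). Slc6a13, a GABA carrier of the proximal tubule, had 2000, 1791 and 2370 and 2218, 2777 and 2496, overlapping through Control replicate 3 and KC-Tie2 replicate 1 (log2 fold change 0.29 ± 0.11, limma adjusted p = 0.264). Slc6a12, the betaine carrier that cells of the medulla use against high salt (ENSMUSG00000030109, chromosome 6, 121320035 to 121342734), had 12.6, 56.2 and 20.3 in Control and 128, 153 and 74.4 in KC-Tie2 kidneys. Every KC-Tie2 library lay above every Control library. Its means were 29.7 ± 23.3 and 118 ± 39.9 (SD, n = 3 each), 4.48-fold higher on the log2(value + 1) scale, without a call (log2 fold change 2.16 ± 0.55, limma adjusted p = 0.13). In the authors' deposited table its ratio was 3.89 with a step-up FDR of 0.000265. Without Control replicate 2, the highest of the Control libraries, its limma adjusted p was 0.00443, and without Control replicate 3 it was 0.389. Of 17 alternative fits, 2 called Slc6a12.

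The remaining Slc6 genes are best known from nerve cells. Slc6a17, a vesicle carrier of neutral amino acids, had 667, 777 and 851 in Control and 1026, 1240 and 903 in KC-Tie2 kidneys, with no overlap (log2 fold change 0.46 ± 0.13, limma adjusted p = 0.116). Slc6a9, a glycine carrier, went the other way, at 465, 433 and 562 and 363.5, 365.5 and 421, also with no overlap (log2 fold change -0.34 ± 0.11, limma adjusted p = 0.174). Slc6a9 overlaps B4galt2 by 5939 bases and Ccdc24 by 6034 bases on the other strand, and B4galt2 had 31.3 to 55.2 in Control and 36.3 to 79.2 in KC-Tie2 kidneys. Slc6a15, a neutral amino acid carrier, had 910 ± 131 and 968 ± 173, and Slc6a4, the serotonin carrier, 133 ± 11.9 and 109.5 ± 18.4.

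In the Slc38 family, sodium-coupled carriers of glutamine and other neutral amino acids, 6 of 8 genes had a log2 fold change above 0 and none was called or had an unadjusted p under 0.05. Slc38a10 had 3957 ± 102 and 3948 ± 226. Slc38a2, which cells raise when amino acids run short, had 2440, 1663 and 2150 in Control and 2665, 2787 and 2158 in KC-Tie2 kidneys, overlapping through KC-Tie2 replicate 3 (log2 fold change 0.29 ± 0.16). Slc38a3, which brings glutamine into proximal cells for ammonia production, had 985, 1424 and 920 and 1073, 1282 and 1343 (log2 fold change 0.17 ± 0.18). Slc38a1, another glutamine carrier, had 213, 171 and 218 and 250, 242 and 229, with no overlap and no call (log2 fold change 0.27 ± 0.13, limma adjusted p = 0.364). Means of the remaining Slc38 genes in Control and KC-Tie2 kidneys were 459 and 513 for Slc38a7, 345 and 369 for Slc38a6 and 40.5 and 42.25 for Slc38a4, and their ranges overlapped. Slc38a9, the arginine sensor of the lysosome, was slightly lower in each KC-Tie2 library, at 636, 682 and 616 against 613, 588 and 612 (log2 fold change -0.09 ± 0.08, limma adjusted p = 0.646).

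The Slc36 genes are proton-coupled carriers of small amino acids. Slc36a1, found on lysosomes and brush borders, had 3600 ± 194.5 and 3627 ± 263 (log2 fold change 0.01 ± 0.08), and Slc36a4 had 284 ± 31.4 and 318 ± 40.8. Slc36a2, a glycine and proline carrier of kidney and brown fat, split by library and not by genotype, with 130, 4.13 and 6.77 in Control and 96.6, 0.834 and 5.44 in KC-Tie2 kidneys. Replicate 1 of each genotype held nearly all of it. The same libraries held transcripts of adipocytes, a list chosen after the values were seen: Ucp1, the uncoupling protein of brown fat, had 442, 10.7 and 0 in Control and 138, 2.5 and 0.907 in KC-Tie2 kidneys. All 8 adipocyte genes together summed to 3837, 660 and 469 and to 2657, 493 and 518. The part of adipose tissue in the Slc36a2 values was not tested. With both these libraries left out, a fit added after the data were seen, Slc36a2 was under the limit on low values, none of the other 43 transporters was called, and 20 genes of the whole table were.

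**Figure D5:**
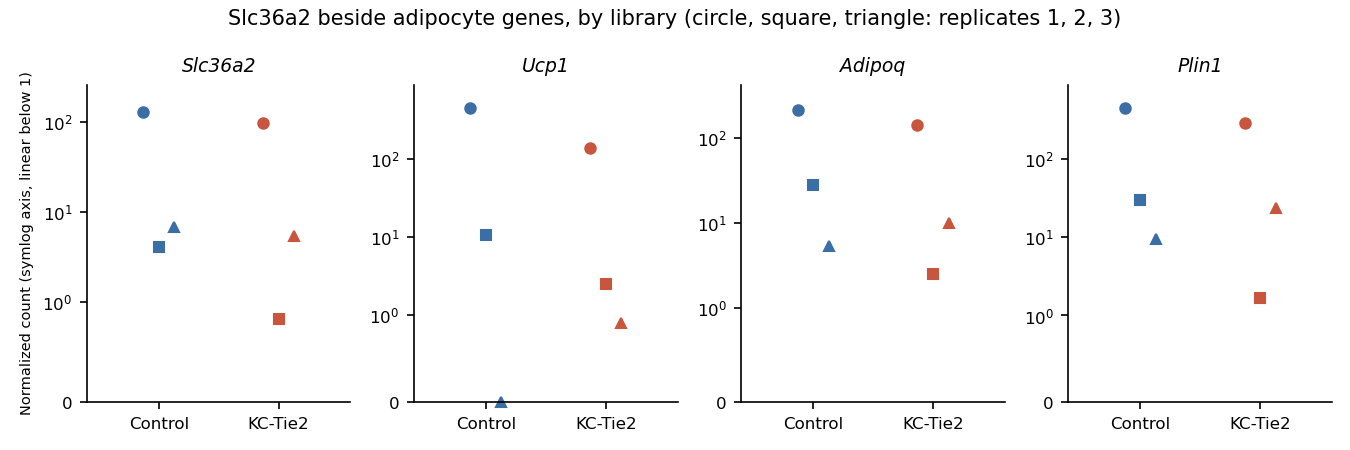
Normalized counts of Slc36a2 and of the adipocyte genes Ucp1, Adipoq and Plin1 in each library on a symlog axis (linear below 1), circle, square and triangle being replicates 1, 2 and 3. In all 4 panels the circles, replicate 1 of each genotype, are the highest of their genotype.

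Genes that work beside the transporters were taken from lists of the pathway. Of 10 brush border peptidases, which split filtered peptides into amino acids, 1 fell and none rose, where 1.69% of all genes tested were called. The gene that fell was Ggt1, the enzyme that breaks down filtered glutathione, at 17620, 16713 and 21134 in Control and 12072, 13368 and 14706 in KC-Tie2 kidneys (log2 fold change -0.46 ± 0.10, limma adjusted p = 0.0473). The summed count of the peptidases was 69297 to 85762 in Control and 55910 to 68498 in KC-Tie2 kidneys, and their median log2 fold change was 0.14, with 6 of the 10 above 0, so the sum and the median differ in sign. Of 15 amino acid and peptide carriers of other families none was called. At an unadjusted p under 0.05 there were 4 of these 15 and 4 of the 10 peptidases, against 15.3% of all genes tested. The smallest p of the 15 was that of the mitochondrial ornithine carrier Slc25a15 (means of 3917 for Control and 3188 for KC-Tie2, limma adjusted p = 0.152). Slc16a10, a basolateral carrier of aromatic amino acids, had 1485 and 1746 (limma adjusted p = 0.233).

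Genes of the response to amino acid supply held no call. Of 17 targets and factors of the ATF4 response none was called, 9 lay above and 8 below 0, and the gene with the smallest p, Shmt2 of mitochondrial serine metabolism, had 3966 and 3159 (limma adjusted p = 0.0751). Of 23 genes of lysosomal amino acid sensing by mTORC1 none was called, with 12 above and 11 below 0, and Rragd, a GTPase of that pathway, had 1912 and 2326 (limma adjusted p = 0.0742). Of 7 genes of renal ammonia production none was called, with 4 above and 3 below 0. Rhcg, an ammonia channel of the collecting duct, had 1713 and 2093 (limma adjusted p = 0.0599), beside the principal cell markers given above. Pck1 of the same list went the other way, with means of 55400 and 27443 and no overlap (2.08-fold lower, limma adjusted p = 0.339). At an unadjusted p under 0.05 these 3 lists had 6 of 17, 4 of 23 and 2 of 7 genes, against 15.3% of all genes tested.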

How the data were processed

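Whole-kidney RNA of 3 Control and 3 KC-Tie2 samples was sequenced after poly(A) selection, per the labels' protocols. STAR, DESeq2 and Partek 12.5.0 and the build mm39 are named in the submitters' processing notes; the use of strand in counting is not stated there. The deposited values are normalized counts (a signal scaled per library by the authors, not raw counts), so no count model was fitted and sequencing depth is unknown. The authors' deposited comparison table gives a p-value, a step-up FDR, a ratio and a signed fold change (a score that is minus the inverse of the ratio where that is below 1) per gene, per the file headers.

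R 4.3.3, limma 3.58.1 and Python 3.11.15 were used. Genes with a mean of at least 10 were kept, 1 was added before log2, and limma (lmFit, then eBayes with trend and robust) was run two-sided on 17539 genes with Benjamini-Hochberg adjustment and no covariate. The transporters and all gene lists were chosen with earlier results of these data known. Named genes were those called, those with an unadjusted p under 0.05 and groups that do not overlap, the 3 most abundant of each family, a fixed list of kidney transporters and, per pathway list, called genes or the gene with the smallest p. Gatm, Cltrn, Slc16a10, Pck1, marker genes, overlapping genes and the remaining transporters were named in addition, after their values were seen. Lengths came from GENCODE M21 and promoters from RefSeq. The fit was tested on simulated data with 200 changed genes. Alternatives were the pseudocount, filter, scaling, variance model, replicate block and each library left out. Columns of samples outside the series numbered 0.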

Additional observations from a re-analysis of the deposited data

How the results depend on the processing

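The main counts were 1 transporter higher and 2 lower. Scaling to equal totals gave 1 lower, Slc6a20b in place of both, voom weights gave 1 lower, and leaving out the robust step gave 2 higher. Leaving out each library in turn gave 0 to 3 higher and 0 to 4 lower, and leaving out Control replicate 1 and KC-Tie2 replicate 1 together, added after seeing the data, gave 0 and 0. The cause was not tested. Over all genes the calls went from 297 to between 48 and 682 with a library left out, to 549 with library weights, and to 20 with that pair left out.

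With the replicate number as a block, 3 were higher (Slc6a8, Slc6a12 and Slc7a12) and 4 lower (Slc1a2, Slc6a20b, Slc7a13 and Slc7a2), and 581 genes were called in all. Same-numbered samples had correlations of 0.178, -0.096 and 0.017 in their deviations from the group means. Differently numbered samples ran from -0.283 to 0.26. The adipocyte sum was highest in replicate 1 of both genotypes (3837 and 2657), and Xist in replicate 3 of both (415 and 241). Whether same-numbered samples shared a preparation is not in the labels used here and was not tested, so the block stayed an alternative.

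Among these alternatives signs reversed only for genes that were not called. With equal totals the log2 fold change was 0.0296 for Slc38a10 and 0.0217 for Slc43a1. With quantile normalization it was 0.0226 for Slc1a1, 0.0379 for Slc38a10, 0.0244 for Slc3a1, 0.0072 for Slc43a1 and 0.0312 for Slc6a6, and with library weights 0.0059 for Slc38a10. With the pair left out it was -0.0048 for Slc36a1, 0.0038 for Slc38a10, 0.0193 for Slc3a1 and -0.0506 for Slc7a1. With each library left out in turn it ran from -0.0488 to 0.0511 for Slc36a1, -2.34 to 0.73 for Slc36a2, -0.0437 to 0.039 for Slc38a10, -0.29 to 0.23 for Slc43a1, -0.11 to 0.13 for Slc6a19, -0.0835 to 0.12 for Slc7a9, -0.0162 to 0.21 for Slc1a5, -0.12 to 0.0177 for Slc3a1, -0.0715 to 0.25 for Slc7a1, -0.11 to 0.0231 for Slc1a1, -0.11 to 0.004 for Slc6a6, -0.24 to 0.0039 for Slc43a3 and -0.0191 to 0.18 for Slc6a18.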
